A study of Homo sapiens with 16 samples.

Results

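The nuclear genes that encode subunits of the oxidative phosphorylation complexes were followed across cultures of stem-cell-derived islets treated with 7 compounds or with solvent. Members were chosen by gene symbol, namely the NDUFA, NDUFB, NDUFC, NDUFS and NDUFV families, UQCR genes and CYC1, SDHA to SDHD, the COX5 to COX8 families and ATP5 genes, without names that end as pseudogenes do and with 160 or more reads summed over the 16 libraries. Of 62754 genes in the count table, 149 had a matching symbol, 65 of these had pseudogene names, 4 of the other 84 fell under the read minimum, and 80 were members. All 80 passed the filter on low counts. By complex there were 36 members of complex I (NADH dehydrogenase), 4 of complex II (succinate dehydrogenase), 10 of complex III (cytochrome bc1), 11 of complex IV (cytochrome c oxidase, NDUFA4 included) and 19 of complex V (ATP synthase). COX4I1, COX4I2, NDUFAB1, COX7A2L, NDUFA4L2 and cytochrome c (CYCS) lie outside the symbol rule and are given apart.

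Planar islet cultures derived from the established embryonic stem cell line HUES8 (HUES08 in the labels) were sequenced as bulk total RNA, with 2 libraries per group. The groups were colchicine (10 nM), epirizole (2.5 uM), Ly-294002 (120 nM), moxifloxacin (1.1 uM), rottlerin (1.23 uM), vardenafil (125 nM), rimonabant (125 nM) and the solvent DMSO, given from stage 5 through 7 days of stage 6, and every library had the label batch 1. All cultures come from 1 cell line, and the labels do not say whether a group's libraries are separate differentiations, so p-values reflect only how these libraries vary, which may be technical. The compounds differ in kind and dose, so each was compared with DMSO and no comparison by structure was made.

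The respiratory chain passes electrons from NADH and succinate through complexes I to IV to oxygen, and the proton gradient that this builds drives ATP synthesis by complex V. Most subunits are encoded in the nucleus and imported, while a few hydrophobic core subunits are encoded by mitochondrial DNA, and complex II is wholly nuclear. In beta cells the ATP made in this way closes potassium channels and so couples glucose to insulin release.

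Promoters of these genes are known for sites of NRF1, of the ETS factor GABP and of YY1. Of the 80 members, 64 matched an entry in the RefSeq promoter table (GRCh38.p14, from 250 bases before to 50 after the start). GCATGCGC, an NRF1 core, was found on either strand in 13 of 64 member promoters (20.3%) and in 3.05% of the 35116 promoters of the same length. CCGGAAGT, an ETS core, was found on either strand in 10 of 64 (15.6%) and in 4.14% of all promoters. AAGATGGC, a YY1 core, was found on either strand in 11 of 64 (17.2%) and in 2.89% of all. In the promoters shown, words of different factors do not overlap. The words were chosen after a first search with longer ones, and a match describes letters and measures no binding. The promoters below are shown because each holds at least 1 of these words, in capitals, and because COX5B and UQCRC1 are among the members called below. NDUFB4 (chr3:120596086-120596385, plus strand) holds the NRF1 word on both strands at 1 place. SDHD (chr11:112086623-112086922, plus strand) holds it in the same way and, on the minus strand, the ETS word. COX5B (chr2:97645812-97646111, plus strand) holds the NRF1 word and, at 2 places, the ETS word, and UQCRC1 (chr3:48609597-48609896, minus strand) holds the YY1 word.
NDUFB4: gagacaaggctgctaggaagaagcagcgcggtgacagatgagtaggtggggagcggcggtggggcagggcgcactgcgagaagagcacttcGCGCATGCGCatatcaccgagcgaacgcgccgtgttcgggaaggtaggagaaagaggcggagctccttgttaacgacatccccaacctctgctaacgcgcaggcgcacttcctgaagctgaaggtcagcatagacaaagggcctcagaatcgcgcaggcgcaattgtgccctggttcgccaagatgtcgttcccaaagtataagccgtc
SDHD: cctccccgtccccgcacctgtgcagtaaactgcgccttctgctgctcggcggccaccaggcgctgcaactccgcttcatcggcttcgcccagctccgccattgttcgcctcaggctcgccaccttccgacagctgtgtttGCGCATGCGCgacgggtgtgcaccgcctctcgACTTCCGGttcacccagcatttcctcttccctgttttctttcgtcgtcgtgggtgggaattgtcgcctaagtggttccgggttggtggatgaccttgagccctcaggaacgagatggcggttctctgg
COX5B: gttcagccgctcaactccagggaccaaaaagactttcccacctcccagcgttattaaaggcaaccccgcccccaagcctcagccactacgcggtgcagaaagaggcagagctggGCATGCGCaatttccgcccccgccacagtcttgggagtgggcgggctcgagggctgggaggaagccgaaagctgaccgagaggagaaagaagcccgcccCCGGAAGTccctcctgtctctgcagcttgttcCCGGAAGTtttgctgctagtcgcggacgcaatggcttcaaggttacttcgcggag
UQCRC1: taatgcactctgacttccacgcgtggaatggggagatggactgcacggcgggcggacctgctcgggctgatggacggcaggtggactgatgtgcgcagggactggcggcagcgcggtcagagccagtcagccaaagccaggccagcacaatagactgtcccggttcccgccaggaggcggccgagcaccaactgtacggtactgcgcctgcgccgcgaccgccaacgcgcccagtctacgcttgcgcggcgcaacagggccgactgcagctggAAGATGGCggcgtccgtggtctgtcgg

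Base composition differs widely among the members and recurs in the comparisons below. The GC content of the representative transcript (GENCODE release 29) had a median of 50.8% over the 80 members, with a range of 33.2 to 69.3%, against a median of 48.9% over the 23352 tested genes with a value. The first 120 coding bases are shown, with every G and C in capitals, for ATP5F1D (chromosome 19, 1241746 to 1244826, plus strand, GRCh38) and NDUFB7 (chromosome 19, 14566078 to 14572062, minus strand), both GC-rich, and for NDUFA5 (chromosome 7, 123536997 to 123558255, minus strand), the member of lowest GC. G and C make up 77.5%, 69.2% and 36.7% of these stretches.
ATP5F1D: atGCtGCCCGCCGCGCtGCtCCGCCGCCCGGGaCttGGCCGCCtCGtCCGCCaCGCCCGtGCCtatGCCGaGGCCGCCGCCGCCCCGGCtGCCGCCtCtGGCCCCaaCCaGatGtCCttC
NDUFB7: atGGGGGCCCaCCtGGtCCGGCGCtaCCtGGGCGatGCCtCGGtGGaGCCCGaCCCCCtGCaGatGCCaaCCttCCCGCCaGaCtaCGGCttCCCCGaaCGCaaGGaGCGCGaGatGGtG
NDUFA5: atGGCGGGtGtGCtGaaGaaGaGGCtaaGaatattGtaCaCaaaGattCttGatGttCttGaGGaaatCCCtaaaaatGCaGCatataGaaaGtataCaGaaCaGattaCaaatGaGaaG

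Most subunit transcripts were abundant. The median member had 25.3 CPM (read counts scaled to a common library total, not to gene length) and stood at percentile 70.6 of the 24515 tested genes, whose median was 5.49 CPM, although the median member transcript has 708 bases and the median tested one 1717. Of the 80 members, 71 had a median over 10 CPM, 4 over 100 CPM and 2 under 1 CPM. Together they took 0.295 to 0.345% of the reads of a library. The median standard deviation within groups, on the log2 CPM scale, was 0.119 for members and 0.268 for all tested genes, a difference not matched for level.

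Levels per transcript length, as RPKM (CPM divided by the transcript's length in kilobases), differed widely within each complex. In complex I, NDUFS5, a small accessory subunit, was highest with a median of 98.7 RPKM over the 16 libraries (range 82.7 to 107), and NDUFA7 was lowest with 1.85 RPKM (0.816 to 3.13). In complex II, the membrane anchor SDHC had 77.9 RPKM (66.7 to 91.2) and the flavoprotein SDHA 7.72 RPKM (6.72 to 9.08). UQCRB, which helps to bind ubiquinone in complex III, had 140 RPKM (120 to 161), while UQCRHL, a near copy of UQCRH, had 1.17 RPKM (0.972 to 1.51). COX7C, a small subunit of complex IV, was the highest of all members with 207 RPKM (173 to 222), and COX6B2 the lowest with 0.198 RPKM (0.0743 to 0.581). ATP5F1A, the alpha subunit of the F1 head of ATP synthase, had 171 RPKM (148 to 203) and ATP5MGL, a like copy of subunit g, 0.938 RPKM (0.412 to 2.04). The median member of complex V had 73.1 RPKM and that of complex IV 53.2 RPKM, against 32.4 in complex III, 27.4 in complex I and 16.4 in complex II. These levels depend on 1 transcript chosen per gene. For 7 members other genes on the same strand covered 50% or more of that transcript (NDUFB8, NDUFV2, NDUFC2, NDUFA7, ATP5PO, NDUFA13 and ATP5MF), and how reads in such overlaps were counted is not given in the sources used here. These 7 had a median of 12.1 RPKM, against 37.2 RPKM for the other 73.

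**Figure D1:**
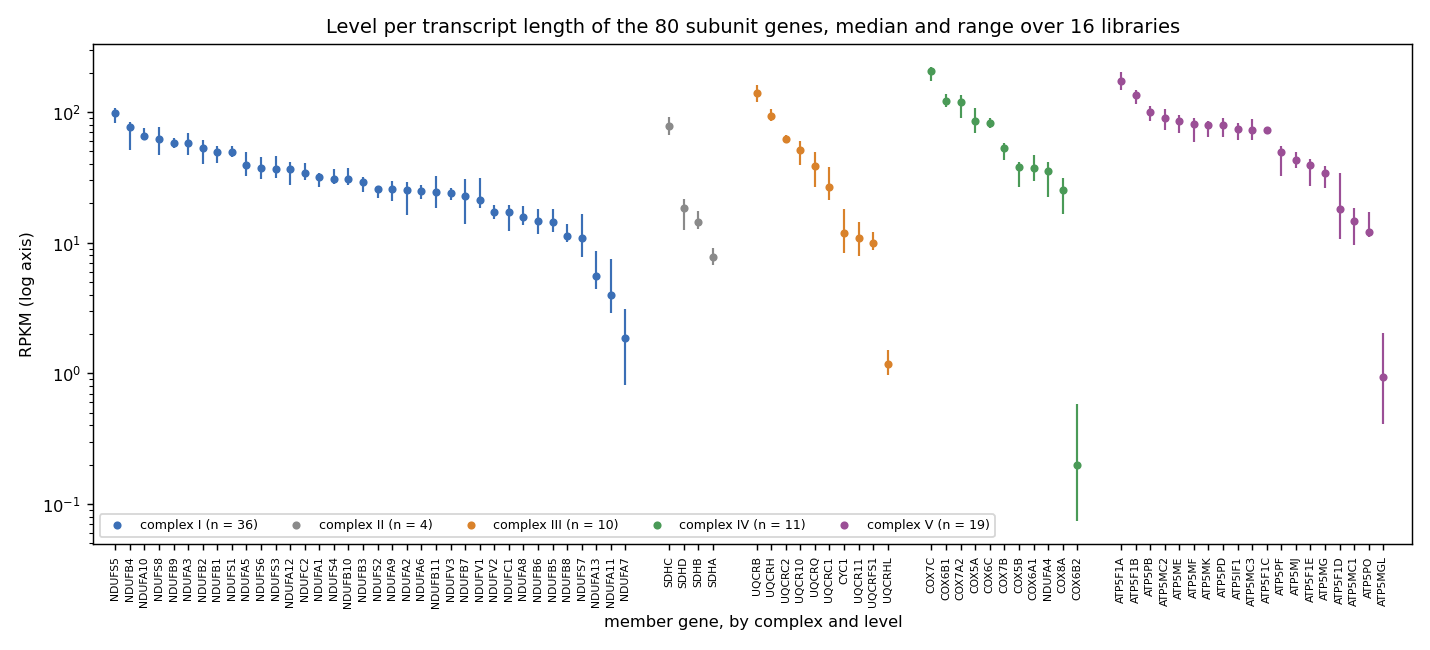
Each point is the median level per transcript length (RPKM, log axis) of 1 of the 80 member genes over 16 libraries, with a line from the lowest to the highest library, sorted within complexes I to V. COX7C tops complex IV at 207 RPKM, and COX6B2, in the same complex, is the lowest member at 0.198 RPKM.

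Where a subunit has tissue isoforms, the widely expressed form dominated. COX6A1 had a median of 37.1 RPKM, while COX6A2, its form in heart and skeletal muscle, had 3 reads over all 16 libraries. COX7A2 had 118 RPKM, and the muscle form COX7A1 8 reads in all. The testis forms were also scarce, with 39 reads in all for COX8C (COX8A, 25.3 RPKM), 0 for COX7B2 (COX7B, 53.2 RPKM) and 182 for COX6B2 (COX6B1, 121 RPKM). Outside the rule, COX4I1 had 204 RPKM and COX4I2 0.284 RPKM, and NDUFA4 had 35.3 RPKM against 0.583 RPKM for NDUFA4L2, its hypoxia-inducible relative. Among the genes that encode the same mature c-ring subunit of ATP synthase, ATP5MC2 (90.6 RPKM) and ATP5MC3 (73.1 RPKM) stood above ATP5MC1 (14.7 RPKM). UQCRH had 93.2 RPKM and UQCRHL 1.17 RPKM, and reads of such near copies may be split between them.

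The read minimum fell between clearly separate genes. COX6B2 (182 reads), ATP5MGL (373) and NDUFA7 (507) lay just above it, and COX8C (39), COX7A1 (8) and COX6A2 (3) just below it. COX6B2 had the largest pooled standard deviation within groups, 0.780 on the log2 scale, and ATP5F1C, the gamma subunit of the central stalk, the smallest, 0.0465. ATP5F1C lay between 71.5 and 82.3 TMM CPM (CPM with library totals scaled by TMM factors) in all 16 libraries.

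Rimonabant 2 stood apart from the other libraries. Within each library the deviation of a gene from its mean over libraries ran with its GC content, with a slope of 0.680 in Rimonabant 2, −0.185 to 0.163 in the other 13 compound libraries and −0.291 and −0.349 in DMSO 1 and DMSO 2, so the DMSO libraries lay at the other end. Set against the mean of DMSO, the 13 mitochondrially encoded subunits had a median deviation of −1.26 in Rimonabant 2 and −0.83 to −0.13 in the other 13 compound libraries, against −0.07 and 0.07 in the DMSO libraries. Library totals ran from 23294377 to 30701868 reads. Markers of islet endocrine cells summed to 65.7 to 508 CPM per library with IAPP, the amyloid peptide of beta cells, at 3 reads or fewer in each, while those of liver and gut epithelium summed to 5977 to 11337 CPM. Markers of the labelled cell type were thus scarce in sum, with IAPP near 0, though 14 of the 15 had a median of 1 CPM or more. As whole cultures were sequenced, fewer cells of a type and less RNA per cell cannot be told apart.

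Rimonabant, an antagonist of the cannabinoid receptor CNR1, was the compound with subunit genes past the threshold (adjusted p under 0.05). There 13 of 80 members were called, 11 higher and 2 lower, against 7.8% of all tested genes (5.03% higher and 2.77% lower). The median change over the 80 members was 0.07 (all tested genes 0.00), and 48 lay above the DMSO mean, against 50.4% of all. In DMSO 1 alone 55 members lay above that mean, and in DMSO 2 25. The rises spanned complexes I, III, IV and V. Complex I gave 5 rises and 1 fall, complex III 3 rises and 1 fall, complex IV 2 rises and complex V 1 rise, while no member of complex II was called.

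In complex V, ATP5F1D, the delta subunit of the central stalk, stood at 13.1 and 23.1 TMM CPM in Rimonabant 1 and 2, against 7.63 and 8.98 in DMSO 1 and 2, a log2 change of 1.13 ± 0.23 (SE; adjusted p = 0.0143). Both rimonabant libraries lay above both DMSO libraries, with Rimonabant 2 far above the rest. In complex IV, COX8A (chromosome 11, 63974607 to 63976543), a small transmembrane subunit, had 13.9 and 13.6 TMM CPM under rimonabant against 9.85 and 8.48 in DMSO (0.59 ± 0.17, adjusted p = 0.0470). COX5B (chromosome 2, 97646040 to 97648383), a subunit on the matrix side, had 28.8 and 26.9 TMM CPM against 22.1 and 19.3 in DMSO (0.43 ± 0.11, adjusted p = 0.0331). For COX8A and COX5B the libraries of each pair lay close together and the groups did not overlap.

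In complex III, CYC1, the haem-bearing cytochrome c1 (chromosome 8, 144095027 to 144097525), had 17.4 and 21.4 TMM CPM in rimonabant cultures and 12.4 and 10.5 in DMSO cultures (0.76 ± 0.17, adjusted p = 0.0192). UQCRC1, a core protein (chromosome 3, 48599002 to 48610976), had 60.3 and 71.3 against 46.0 and 43.1 TMM CPM in DMSO (0.56 ± 0.11, adjusted p = 0.0137). UQCRQ, a small subunit, rose as well (25.5 and 24.3 TMM CPM against 20.1 and 15.9 in DMSO, log2 change 0.47). UQCRB went the other way, at 81.4 and 68.1 TMM CPM under rimonabant against 94.3 and 97.3 in DMSO (−0.36 ± 0.09, adjusted p = 0.0312). Within 1 complex, then, members that passed the test lay on both sides of DMSO.

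In complex I the catalytic iron-sulfur subunits NDUFS7 (11.5 and 16.5 TMM CPM, against 8.72 and 8.21 in DMSO) and NDUFS8 (26 and 25.9 against 17.2 and 19.6 TMM CPM in DMSO) rose by 0.72 and 0.50. So did accessory subunits of the membrane arm. NDUFB7 had 12.05 and 15.6 TMM CPM against 7.45 and 8.21 in DMSO (0.82 ± 0.18, adjusted p = 0.0191), NDUFB11 25.6 and 29.1 against 17.8 and 18.7 in DMSO (0.58), and NDUFA11 9.57 and 15.4 against 6.58 and 6.68 in DMSO (0.92 ± 0.25, adjusted p = 0.0404). NDUFA5, an accessory subunit of the matrix arm, fell to 51.3 and 46.3 TMM CPM under rimonabant, against 69.1 and 75.8 in DMSO (−0.57 ± 0.09, adjusted p = 0.0120), the smallest p of the 80 members in this comparison. In all 13 called members the rimonabant and DMSO libraries did not overlap, which their choice by a test on these libraries makes likely. Over the 80 members, 28 lay wholly above and 15 wholly below DMSO, against 26.8% and 26.4% of all tested genes.

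**Figure D2:**
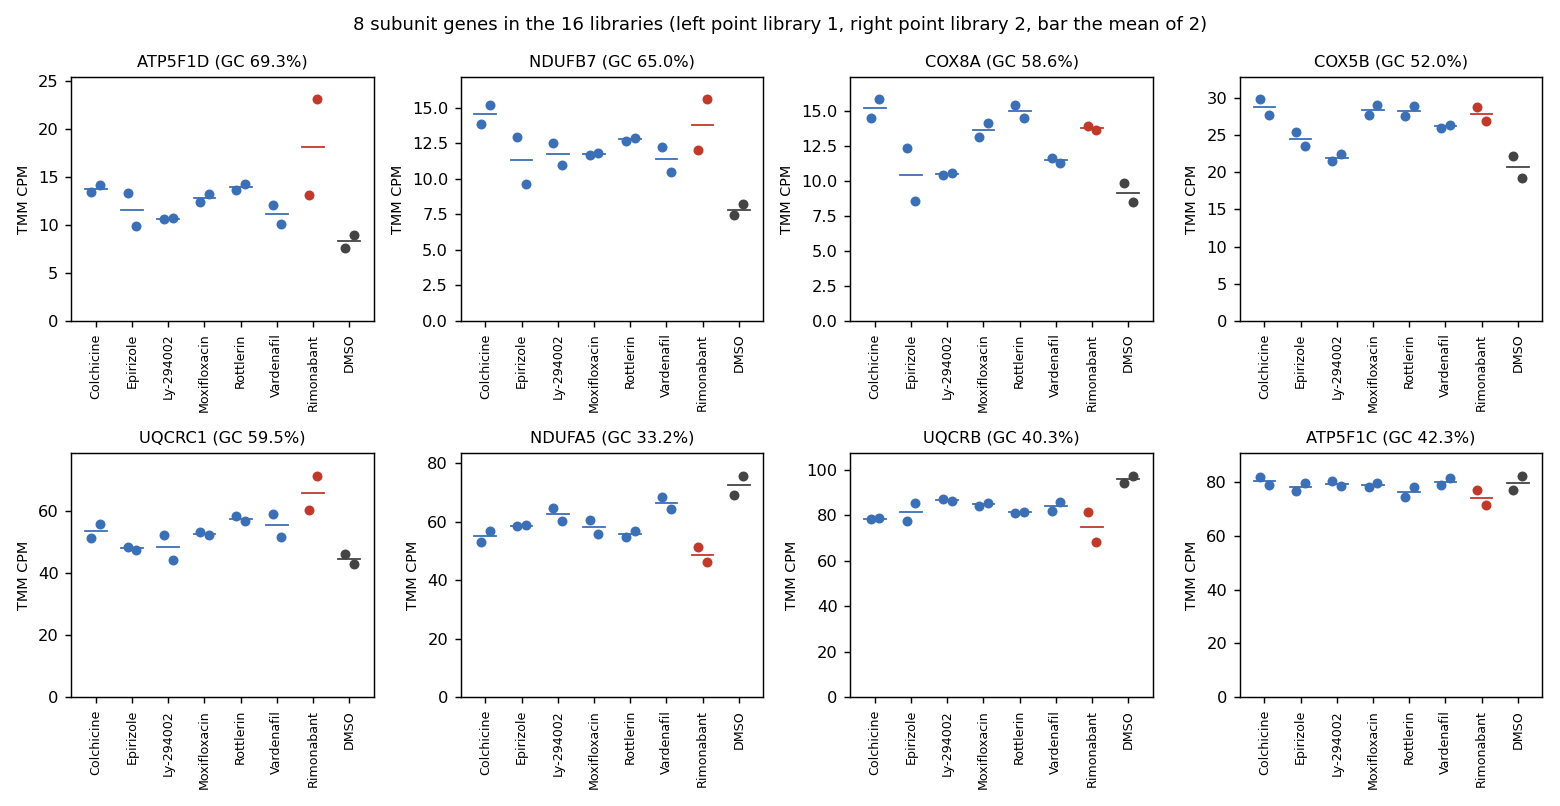
TMM-normalised CPM of 8 members in every library, compounds left and DMSO right, with 1 point per library and a bar at the mean of 2. ATP5F1D, NDUFB7, COX8A, COX5B and UQCRC1 are lowest in DMSO by group mean and NDUFA5 and UQCRB highest in DMSO, while ATP5F1C stays between 71.5 and 82.3.

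The rimonabant calls sorted by base composition. Across the 80 members the log2 change ran with GC content (Spearman rho 0.76, a description over genes of the same libraries, which are not independent replicates), and across 23352 tested genes rho was 0.55. Among the 26 members of highest GC (53.8 to 69.3%), 10 were called higher and 0 lower, with a median change of 0.43. All tested genes in that GC range had a median of 0.36, and 1124 of 7638 were called higher. Among the 27 members of lowest GC (33.2 to 47.4%), 0 were called higher and 2 lower, with a median of −0.12, against −0.21 for all tested genes in that range, of which 602 of 10009 were called lower. With an offset for GC content fitted per library, rho over the members was 0.08 and none of the 13 remained past the threshold (smallest adjusted p 0.247; unadjusted p under 0.05 for 12 of 80). All 13 kept their sign, and the median size of their change was 0.25 in place of 0.58. Without Rimonabant 2, none of the 13 passed (smallest adjusted p 0.143) although all kept their sign, and without Rimonabant 1, 22 members were called, 11 in each direction, 9 of them shared with the 13. The share of all tested genes called in the fits without a rimonabant library is not given here. What part the library composition has in these calls was not tested.

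**Figure D3:**
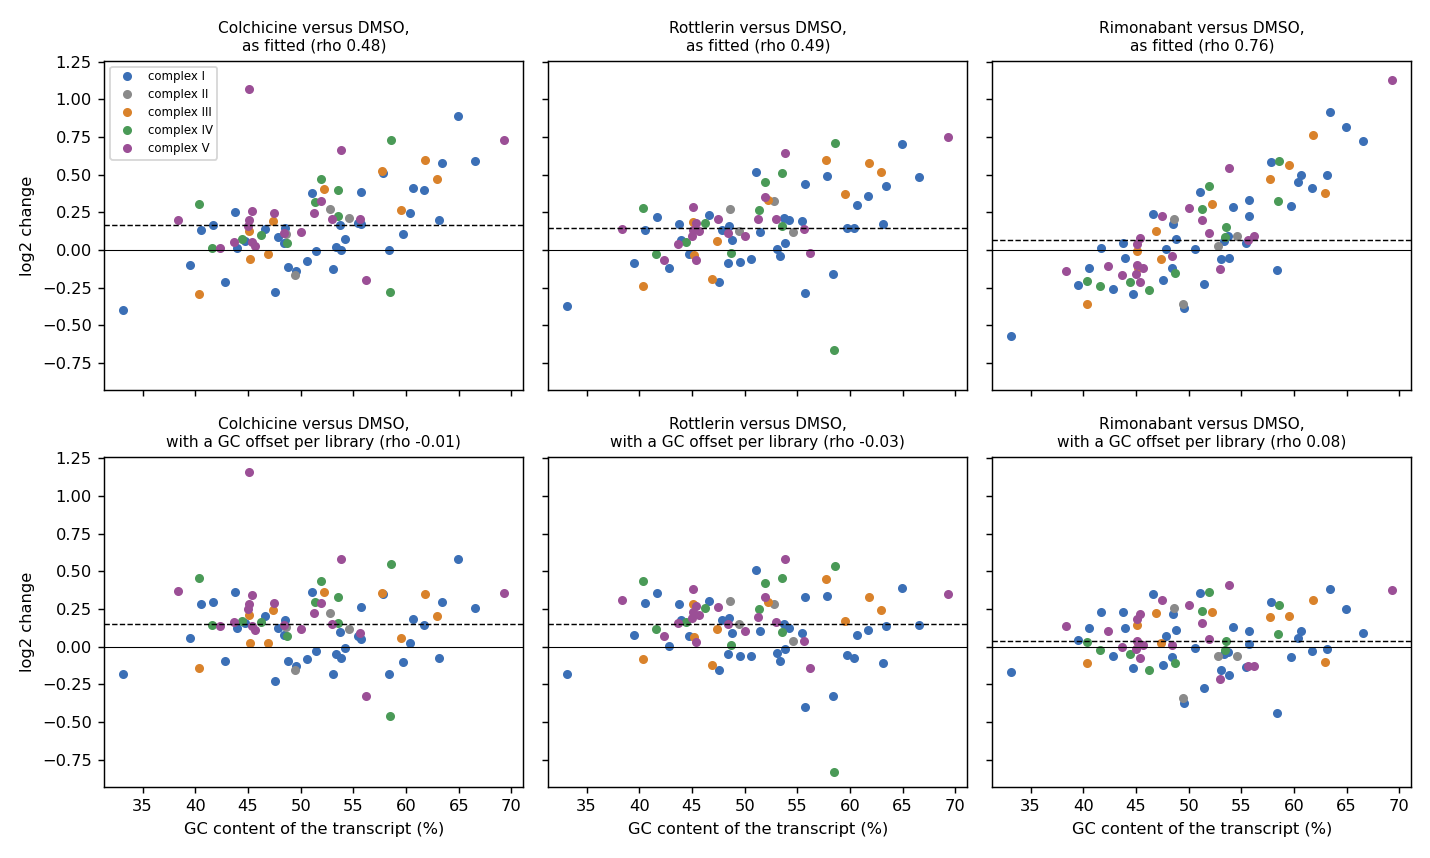
Log2 change against DMSO (vertical) by GC content of the transcript (horizontal, %) for the 80 members, coloured by complex, under colchicine, rottlerin and rimonabant, as fitted (top) and with a GC offset per library (bottom); the dashed line is the median of the members. The slope of the top panels (rho 0.48, 0.49 and 0.76) is near 0 in the bottom ones, and the dashed line is at 0.17 (top) and 0.15 (bottom) for colchicine and at 0.15 in both for rottlerin.

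Colchicine, which blocks tubulin polymerisation, gave the largest median of the subunit genes as fitted, with no member past the threshold; with the GC offset rottlerin's was as large (0.15 each), and the gap between them was below the replicate SD of the median, 0.0459. The median log2 change over the 80 members was 0.17, against −0.01 for all 24515 tested genes, of which 0.196% were called. Of the members 64 lay above the DMSO mean, against 48.8% of all tested genes. At an unadjusted p under 0.05 there were 24 members higher and 2 lower, against 9.01% and 8.52% of all tested genes. In 41 members both colchicine libraries lay above both DMSO libraries and in 10 below, against 24.5% and 25.8% of all. The medians were 0.12 in complex I, 0.16 in complex II, 0.23 in complexes III and IV and 0.20 in complex V, where 18 of 19 members lay above DMSO.

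Single genes show the size of these differences. NDUFB7 had the smallest p, at 13.9 and 15.2 TMM CPM in colchicine cultures against 7.45 and 8.21 in DMSO cultures (0.89 ± 0.18, adjusted p = 0.0508). COX8A had 14.5 and 15.8 TMM CPM under colchicine against 9.85 and 8.48 in DMSO (0.73 ± 0.17, adjusted p = 0.0623), and COX5B 29.8 and 27.7 against 22.1 and 19.3 in DMSO (0.47 ± 0.11, adjusted p = 0.0623). NDUFB11 (24.6 and 27.5 TMM CPM against 17.8 and 18.7 in DMSO) and NDUFA5 (53.2 and 56.9 against 69.1 and 75.8 in DMSO) had the same adjusted p. The libraries of these 5 genes did not overlap between the groups, which their choice by smallest p makes likely. The rimonabant libraries enter the shared estimate of the spread. With either left out, some members passed the threshold in this comparison, NDUFA5 lower and the others higher. This setting was chosen after seeing the data, and the share of all tested genes called in it is not given here.

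The shift under colchicine was present in members of every GC range. Its median was 0.33 in the 26 members of highest GC, 0.12 in the 27 of middle GC and 0.07 in the 27 of lowest GC, against 0.18, 0.01 and −0.13 for all tested genes in the same GC ranges. With the GC offset the median over all 80 was 0.15, with 62 above DMSO. The offset moved single genes of extreme composition more, NDUFA5 to −0.18 and NDUFB7 to 0.58, than COX5B, whose GC is 52.0% and whose change was 0.44 with it. The 2 DMSO libraries themselves differed, with a median deviation of the members of 0.05 in DMSO 1 and −0.05 in DMSO 2. The colchicine median was 0.22 without DMSO 1 and 0.08 without DMSO 2.

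Rottlerin, a plant compound used against protein kinase C delta, gave a median of 0.15 over the members (all tested genes 0.00), with 60 of 80 above the DMSO mean against 49.4% of all tested genes, and 0 members past the threshold, against 0.00816% of all. Unadjusted, 21 were higher and 2 lower, against 8.3% and 6.48% of all. In 40 members both rottlerin libraries lay above both DMSO libraries and in 6 below, against 23.6% and 24.4% of all. UQCRQ (chromosome 5, 132866560 to 132868031) had 28.2 and 26.3 TMM CPM in rottlerin cultures, against 20.1 and 15.9 in DMSO cultures (0.60 ± 0.12, adjusted p = 0.0657). COX8A stood at 15.5 and 14.5 TMM CPM, against 9.85 and 8.48 in DMSO (0.71 ± 0.17, adjusted p = 0.0887). NDUFB11, COX5B and NDUFA5, the next by p, had changes of 0.49, 0.45 and −0.37 with adjusted p of 0.0909 to 0.0955. Members of middle GC had a median of 0.16, against 0.01 for all tested genes in that range. Of these 27, 15 lay wholly above DMSO, against 1097 of 5164. The change ran with GC here too. In Rottlerin 1 and 2 the members of highest GC had median deviations from DMSO of 0.37 and 0.26, and those of lowest GC 0.07 and 0.08. With Rimonabant 2 left out, some members passed the threshold, all higher, among them UQCRQ. This setting too was chosen after seeing the data, and the share of all tested genes called in it is not given here.

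Moxifloxacin, a fluoroquinolone antibiotic, gave a median of 0.12 (all tested genes −0.01), with 58 of 80 members above DMSO against 49.3% of all, and 0 called (0.0% of all tested genes). Unadjusted, 17 members were higher and 1 lower, against 6.01% and 5.85% of all. UQCR10, a small subunit of complex III (chromosome 22, 29767369 to 29770413), had the smallest p, with 34.6 and 34.2 TMM CPM under moxifloxacin against 25.2 and 23.3 in DMSO (0.50 ± 0.12, adjusted p = 0.294). COX5B had 27.7 and 29.01 TMM CPM against 22.1 and 19.3 in DMSO (0.45 ± 0.11). NDUFB11 (0.43), NDUFB2 (0.38) and NDUFA5 (−0.31) followed, with adjusted p of up to 0.299. In 39 members both moxifloxacin libraries lay above both DMSO libraries and in 9 below, against 23.2% and 24.4% of all.

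Epirizole, Ly-294002 and vardenafil gave smaller medians, 0.08, 0.03 and 0.05, with 57, 48 and 52 of 80 members above DMSO, against 49.9%, 50.1% and 49.9% of all tested genes, and 0 called in each (0.0% of all). DMSO 1 alone had 55 members above the DMSO mean, with a median deviation of 0.049, and DMSO 2 had 25. Unadjusted, epirizole had 6 members higher and 2 lower (3.09% and 2.17% of all). Ly-294002, an inhibitor of PI3 kinases, had 3 higher and 1 lower (2.44% and 2.25%), and vardenafil, an inhibitor of phosphodiesterase 5, had 5 higher and 0 lower (2.77% and 2.45%). Under epirizole NDUFA5 had the smallest p (58.5 and 58.7 TMM CPM against 69.1 and 75.8 in DMSO, −0.30), followed by UQCR11 (0.56), NDUFB7 (0.53), NDUFA3 (0.34) and UQCRB (−0.23), each with an adjusted p of 0.901. Epirizole 1 and Epirizole 2 differed in NDUFB7, with 12.95 and 9.64 TMM CPM. Under Ly-294002 NDUFB7 came first, at 12.5 and 11 TMM CPM against 7.45 and 8.21 in DMSO (0.59 ± 0.18), followed by NDUFA9 (0.36), ATP5MC1 (0.46), NDUFA5 (−0.21) and UQCR10 (0.21), with an adjusted p of 0.969. Under vardenafil COX5B came first, at 25.9 and 26.4 TMM CPM against 22.1 and 19.3 in DMSO (0.34 ± 0.11), followed by NDUFB7 (0.54), UQCRC1 (0.31), CYC1 (0.40) and UQCR10 (0.28), with an adjusted p of 0.890. In none of these named members did the libraries of compound and DMSO overlap. Their choice by smallest p makes this likely, so it adds no support. The share of all tested genes without overlap is not given here for these compounds.

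**Figure D4:**
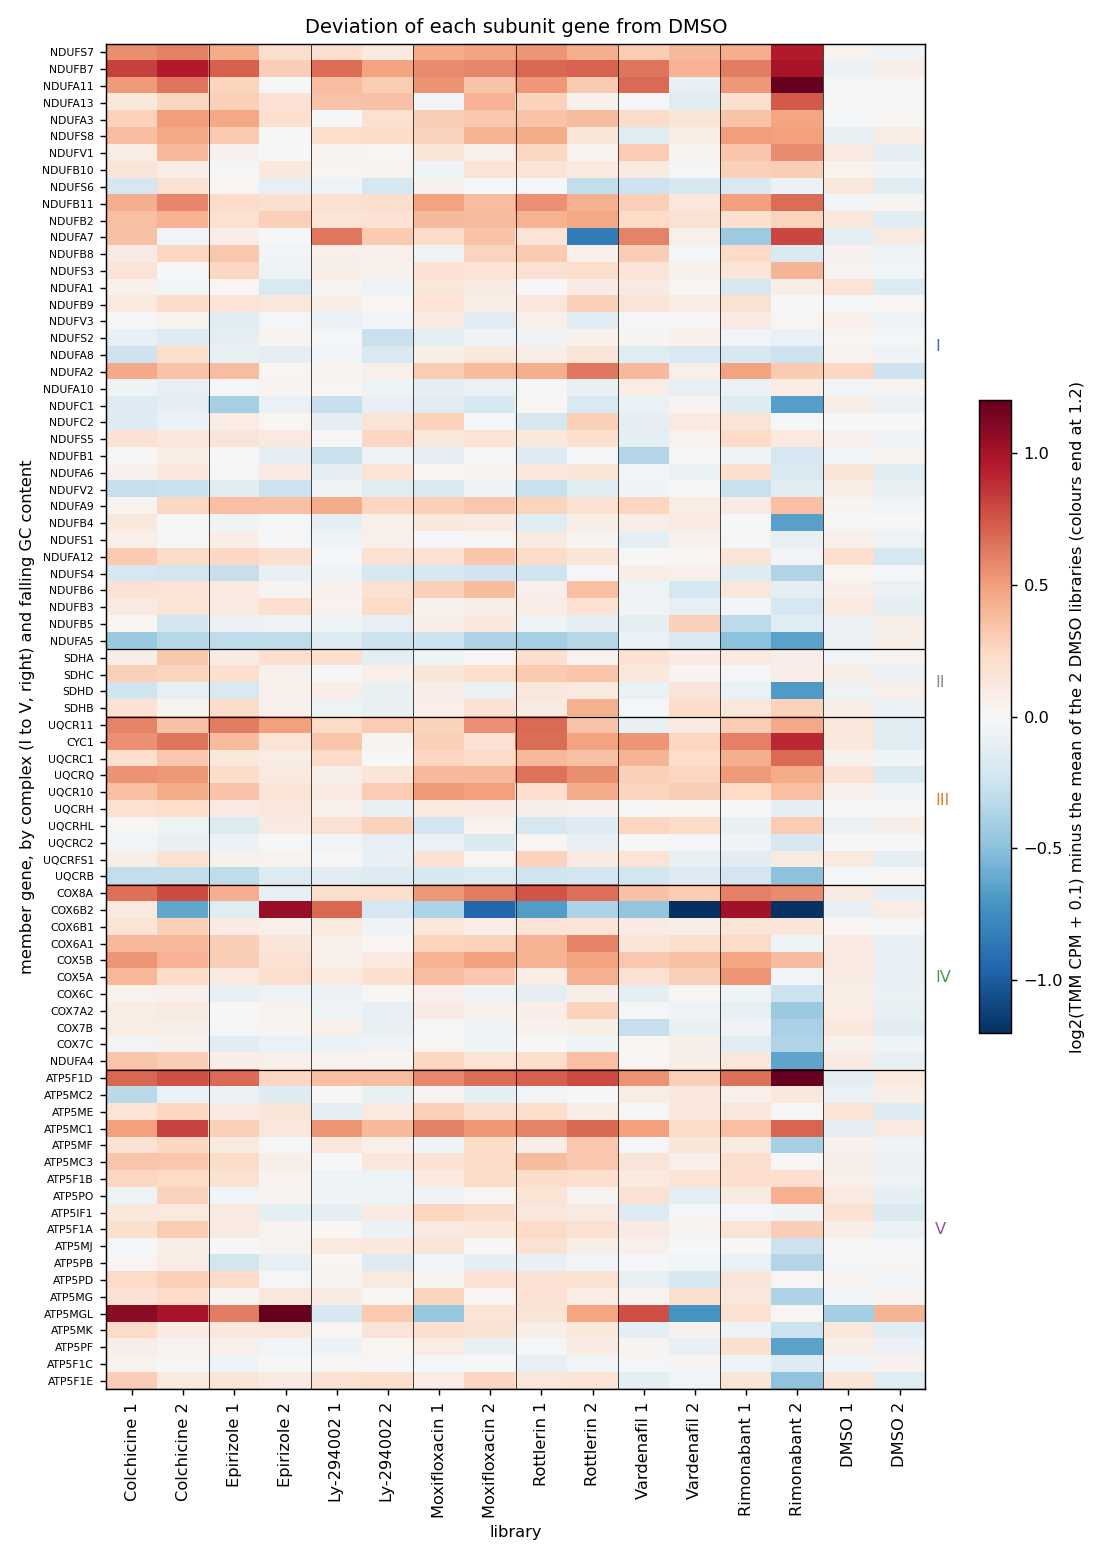
Each cell is the log2(TMM CPM + 0.1) of a member in 1 library minus its mean over the 2 DMSO libraries (red higher, blue lower, colours end at 1.2), with members by complex and falling GC content and DMSO at the right. GC-rich members at the top of complexes I, III and V are red in most compound libraries, NDUFA5 and UQCRB at the foot of complexes I and III are blue in all 14, and Rimonabant 2 has the deepest colours at both ends.

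The 7 comparisons share the same 2 DMSO libraries, so a DMSO value that is low for a gene raises its change under every compound. The shared part was estimated once, as the mean of the 7 compounds against DMSO. Its median over the members was 0.10 (all tested genes −0.01), with 57 of 80 above DMSO against 48.2% of all, 0 called (0.0% of all tested genes) and, unadjusted, 20 higher and 2 lower (8.44% and 8.21% of all). DMSO 1 alone had 55 of 80 members above the DMSO mean. NDUFA5 (−0.33 ± 0.07), NDUFB7 (0.66 ± 0.14), COX5B (0.35 ± 0.09) and NDUFB11 (0.38 ± 0.09) each had an adjusted p of 0.0954, and UQCRQ (0.36 ± 0.10) one of 0.108. NDUFB7 was above both DMSO libraries in each of the 14 compound libraries, and NDUFA5 below both in each. Both genes were picked by this contrast with the same 2 DMSO libraries, so the 14 are not independent observations. The share of all tested genes with such a pattern is not given here.

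Among the 7 compounds alone, without DMSO, no member differed past the threshold (joint test, 0.00408% of all tested genes called), and 14 had an unadjusted p under 0.05, against 9.01% of all. UQCRQ came first (adjusted p = 0.436). Its TMM CPM was 25.99 and 25.6 under colchicine, 20.8 and 19.4 under epirizole, 18.8 and 19.7 under Ly-294002, 23.5 and 23.4 under moxifloxacin, 28.2 and 26.3 under rottlerin, 21.7 and 21.3 under vardenafil and 25.5 and 24.3 under rimonabant. Rottlerin, colchicine and rimonabant cultures thus held the highest levels and epirizole and Ly-294002 cultures the lowest. NDUFA5 came next (adjusted p = 0.439), with 53.2 and 56.9 TMM CPM under colchicine, 58.5 and 58.7 under epirizole, 64.7 and 60.3 under Ly-294002, 60.7 and 55.8 under moxifloxacin, 54.9 and 56.9 under rottlerin, 68.6 and 64.3 under vardenafil and 51.3 and 46.3 under rimonabant. Its lowest libraries were the 2 of rimonabant and its highest compound libraries were Vardenafil 1 and Ly-294002 1.

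UQCRC1 (adjusted p = 0.471) had 51.2 and 55.8 TMM CPM under colchicine, 48.5 and 47.3 under epirizole, 52.2 and 44.2 under Ly-294002, 53.3 and 52.1 under moxifloxacin, 58.4 and 56.6 under rottlerin, 58.9 and 51.7 under vardenafil and 60.3 and 71.3 under rimonabant. NDUFB11 (adjusted p = 0.473) had 24.6 and 27.5 TMM CPM under colchicine, 21.4 and 20.9 under epirizole, 20.7 and 21.2 under Ly-294002, 25.6 and 23.5 under moxifloxacin, 26.8 and 24.6 under rottlerin, 22.3 and 19.9 under vardenafil and 25.6 and 29.1 under rimonabant. COX8A (adjusted p = 0.482) had 14.5 and 15.8 TMM CPM under colchicine, 12.4 and 8.55 under epirizole, 10.4 and 10.6 under Ly-294002, 13.2 and 14.2 under moxifloxacin, 15.5 and 14.5 under rottlerin, 11.7 and 11.3 under vardenafil and 13.9 and 13.6 under rimonabant. In these 3 genes colchicine, moxifloxacin, rottlerin and rimonabant had higher means than epirizole and Ly-294002.

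Transcripts of the subunits encoded by mitochondrial DNA lay on the other side of DMSO. All 13 had a negative log2 change in each of the 7 comparisons, with medians of −0.57 under colchicine, −0.24 under epirizole, −0.25 under Ly-294002, −0.49 under moxifloxacin, −0.64 under rottlerin, −0.29 under vardenafil and −0.79 under rimonabant. The 7 comparisons share the same 2 DMSO libraries, so these negative changes are not independent. Of all tested genes, 48.8 to 50.4% had a change above 0 in these comparisons. Only rimonabant had any of them past the threshold, 4 of 13, namely MT-ND6, MT-ND2, MT-ND5 and MT-ATP8. All 4 were lower, beside 2.77% of all tested genes called lower. These 4 have a GC content of 39.6 to 44.9%, within that of the nuclear members of lowest GC (33.2 to 47.4%). All tested genes in that range had negative medians under rimonabant and colchicine as well. Values of the 13 with the GC offset or without Rimonabant 2 are not given here. What part GC content has in these changes was not tested. MT-ND2 stood at 1013 and 534 TMM CPM in Rimonabant 1 and 2, against 1500 and 1759 in DMSO 1 and 2 (−1.08 ± 0.27, adjusted p = 0.0422). By library, the nuclear members had a positive median deviation in all 14 compound libraries, 0.01 in Rimonabant 2 and 0.03 to 0.20 in the others, and the mitochondrially encoded subunits a negative one in all 14. DMSO 1 itself had 0.049 for the nuclear members, above Rimonabant 2, Ly-294002 1, Epirizole 2 and Vardenafil 1.

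**Figure D5:**
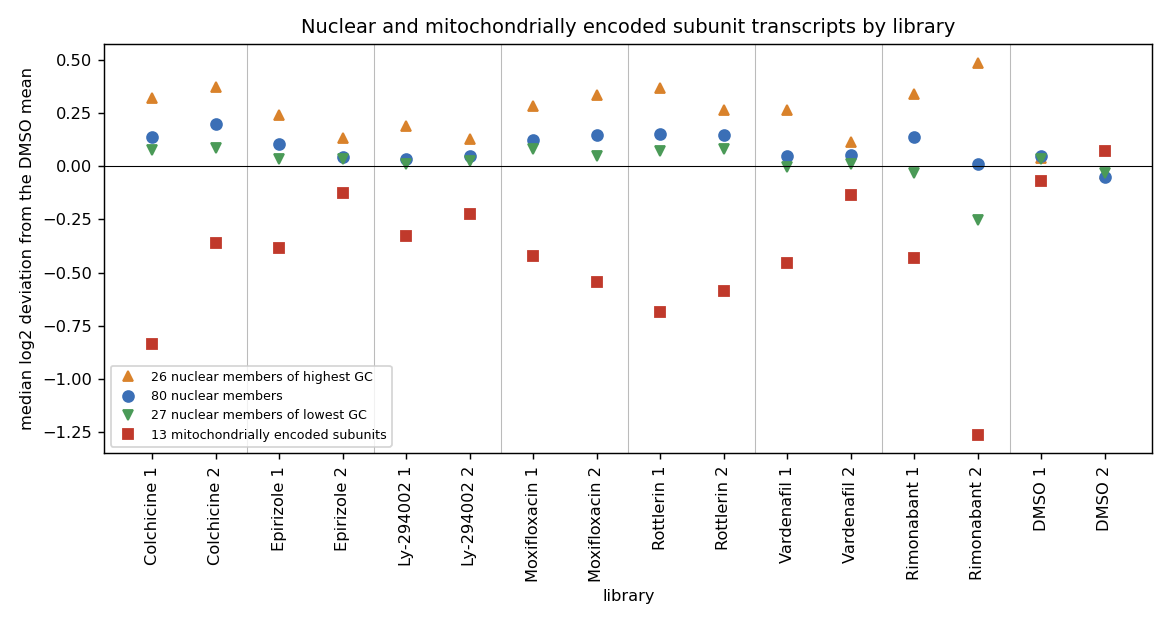
Median log2 deviation from the DMSO mean in each library for all 80 nuclear members, for their 26 of highest and 27 of lowest GC, and for the 13 mitochondrially encoded subunits. In Rimonabant 2 the nuclear members of highest and lowest GC part most (0.49 and −0.25) and the mitochondrially encoded subunits are lowest (−1.26).

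Other mitochondrial genes were read the same way. The 7 tested subunits and carriers outside the symbol rule had medians of −0.10 to 0.06 over the 7 comparisons and no calls. The 18 tested complex I assembly factors had medians of −0.06 to 0.08 over the 7 comparisons. The 40 assembly factors of complexes II to V had medians of −0.01 to 0.06, the 18 citrate cycle enzymes −0.01 to 0.09 and the 77 mitochondrial ribosomal proteins −0.03 to 0.03. The 84 cytosolic ribosomal proteins had medians of −0.04 to 0.05. Of the 7 comparisons, only rimonabant had calls in any of these lists, beside 5.03% of all tested genes called higher and 2.77% lower. There 2 complex I assembly factors rose, NDUFAF3 (18.4 and 16.9 TMM CPM against 11.03 and 10.5 in DMSO, 0.71) and NDUFAF8 (0.72), and 1 later assembly factor, SURF1, which acts in the assembly of complex IV (0.61). Among the citrate cycle enzymes, malate dehydrogenase (MDH2, 0.40) rose and DLD, the lipoamide dehydrogenase, fell (−0.37). Of the 77 mitochondrial ribosomal proteins 5 rose and 3 fell. Of the 84 cytosolic ones 8 rose and 0 fell, beside 5.03% of all tested genes called higher and 2.77% called lower in this comparison. Of the 19 regulators tested, POLRMT, the RNA polymerase of mitochondria (23.4 and 40.6 TMM CPM against 17.7 and 18.6 in DMSO, 0.82), and ESRRA, an orphan nuclear receptor (0.54), rose. Over all called genes of these lists, the rises were of transcripts with a GC content of 52.1% (RPS29) or more and the falls of transcripts with 48.9% (MRPS6) or less.

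Sums of cell markers differed among the libraries, with 0 mesenchyme markers called in any comparison. The 13 mesenchyme markers summed to 1438 and 1674 CPM in the colchicine libraries, 1884 and 1076 in the moxifloxacin libraries, 1665 and 1341 in the rottlerin libraries and 2359 and 2261 in the rimonabant libraries, against 2421 and 2286 in the DMSO libraries. The range was 1870 to 2741 CPM under epirizole, 2159 to 3124 under Ly-294002 and 1506 to 2241 under vardenafil, so the libraries of epirizole and Ly-294002 lay on both sides of DMSO. The 13 liver and gut markers summed to 9888 and 7991 CPM under colchicine, 8959 and 10047 under moxifloxacin, 8124 and 11337 under rottlerin and 9628 and 5977 under rimonabant, against 8198 and 6577 in DMSO. They ranged from 8721 to 8751 CPM under epirizole, 8242 to 9298 under Ly-294002 and 6883 to 9191 under vardenafil. No marker of either list was at or under 3 reads in every library. Markers of duct and pancreatic progenitors summed to 895 to 1242 CPM over the compound libraries, against 1020 and 1114 CPM in DMSO, and those of muscle to 49.3 to 68.5 CPM, against 56.2 and 47.9 CPM in DMSO, with MYOD1, MYOG, CKM and MYH8 at 3 reads or fewer in each library. Of all markers, 4 passed the threshold, each under rimonabant and each higher: APOA1 (1 of 13 liver and gut markers tested), KRT7 and KRT19 (2 of 8 duct and progenitor markers) and PCSK1N (1 of 14 endocrine markers), with 0 of 13 mesenchyme and 0 of 9 muscle markers, beside 7.8% of all tested genes called under rimonabant. The part of the culture make-up in the subunit values was not tested. Within groups, the endocrine sums differed more in relative size than the sums of the 80 members, and the relation between them was not tested. Endocrine markers summed to 363 and 65.7 CPM in Rottlerin 1 and 2, where the 80 members summed to 3449 and 3244 CPM, and to 103 and 508 CPM in Moxifloxacin 1 and 2, where the members summed to 3270 and 3353 CPM.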

How the data were processed

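The deposited values were raw read counts per gene for 62754 genes in 16 libraries of 8 groups, not normalised by the authors, and 0 per-sample columns were left unmapped. Per the labels' protocols, ribosomal RNA was depleted and Trimmomatic 0.38 and STAR 2.7.1a were used on the reads, which were counted with featureCounts 1.6.0 or HTSeq; the submitters' processing notes name HTSeq and GRCh38. Annotation release, strand setting and the handling of multiply mapped reads are not given in the sources used here, so overlapping, antisense and near-identical genes are uncertain.

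Counts were analysed with edgeR 4.0.16 in R 4.3.3. filterByExpr on the 8 groups kept 24515 genes with 99.92% of reads, libraries were scaled by TMM, and 1 fit with 1 coefficient per group left 8 residual degrees of freedom and a common biological coefficient of variation of 0.165. Each compound, and the mean of the 7, was compared with DMSO, and the 7 compounds jointly, by two-sided quasi-likelihood F tests with Benjamini-Hochberg adjustment over all 24515 genes, threshold 0.05; differences are log2, compound minus DMSO, ± SE. RPKM used 1 GENCODE release 29 transcript per gene, of median length among its basic coding ones. The GC offset was a lowess (span 0.3) per library. Floors of 3 reads correspond to 0.0977 to 0.129 CPM and cover counting error only. Replicates differed beyond sampling noise (chi-square per gene 7.39 to 25.6). The fit was tested on simulated counts. Alternatives were DESeq2 1.42.0, RLE factors, no low-count filter, the GC offset, only the groups compared, a replicate block and each library left out in turn.

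The members and the lists (other subunits, assembly factors, citrate cycle, regulators, ribosomal proteins, cell markers) were chosen with earlier results of these data known. Named per comparison were all members past the threshold, or the 5 with the smallest p where fewer than 5 passed; beside these the highest and lowest per complex, the isoform families, those next to the read minimum, the 5 with the smallest joint p and those of largest and smallest spread. 1 gene of the citrate cycle list is not reported here by name.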

Additional observations from a re-analysis of the deposited data

How the results depend on the processing

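No result for a named member changed direction under any alternative: of 48 member results, 906 values kept their side of the threshold, 101 lost and 44 gained it. Many settings could hardly change a direction. Leaving out a library of another compound kept the median size of the 13 rimonabant changes at 0.58 to 0.59. Most of the 48 results were uncalled from the start, so keeping their side mostly meant staying uncalled. Under rimonabant 13 members were called, 11 with RLE factors, 10 without a low-count filter, 15 with DESeq2, and 0 with the GC offset and 0 when only the rimonabant and DMSO libraries entered the fit; with 1 library left out the count ran from 0 (without Rimonabant 2, without DMSO 1 or without DMSO 2) to 22 (without Rimonabant 1). For colchicine the count of 0 became 1 with RLE factors, 6 without the filter and 12 with DESeq2 (0 to 8 with 1 library left out). For rottlerin it became 4 without the filter and 12 with DESeq2 (0 to 4 with 1 left out, 4 without Rimonabant 2), for the mean of the 7 compounds 3 and 12 (0 to 7, 7 without Rimonabant 1), and among the compounds 1 and 1. Epirizole, Ly-294002, moxifloxacin and vardenafil had 0 calls under each of these settings. The share of all tested genes called under each alternative is not given here, so these counts cannot be read as particular to the members. The cause of these differences was not tested.

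The median change of the members moved by less than the spread between replicates (SD 0.0459) under every setting except those that leave out a library. There it ran from 0.077 to 0.223 for colchicine, 0.017 to 0.135 for epirizole, −0.0043 to 0.11 for Ly-294002, 0.066 to 0.181 for moxifloxacin, 0.104 to 0.213 for rottlerin, 0.013 to 0.0997 for vardenafil, −0.0025 to 0.137 for rimonabant and 0.0504 to 0.176 for the mean of the 7; leaving out DMSO 1 gave the highest value except for rimonabant. A lone remaining library was assumed to vary like the other groups. Leaving out libraries of compounds outside a comparison was chosen after seeing the data. Replicate numbers did not pair the libraries (correlations of same-numbered deviations −0.28 to 0.23 over 28 pairs of groups, 5 over 0.1); with a replicate block 9 members were called under rimonabant and 0 in every other comparison. Depth limits COX6B2, ATP5MGL and NDUFA7 most, with 182, 373 and 507 reads over the 16 libraries.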
